A study of Mus musculus with 4 samples.

Results

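The 9 genes described here, *Wnt2*, *Wnt3*, *Wnt3a*, *Wnt4*, *Wnt5a*, *Wnt5b*, *Wnt6*, *Wnt7b* and *Wnt8a*, encode secreted Wnt ligands. They were taken by symbol from the 31055 genes of the count matrices, which hold 19 genes named Wnt and a number. Each of the 9 symbols stood for 1 row, and each gene was detected in all 4 libraries. The members were chosen as genes, with earlier results of these data known, and not by a rule on a change between the groups.

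Wnt ligands are lipid-modified glycoproteins. The acyltransferase Porcn adds the lipid and the carrier Wls brings the ligand to the cell surface, where it binds a Frizzled receptor. With the co-receptors Lrp5 and Lrp6 this stabilises β-catenin, which acts with Tcf and Lef factors on target genes such as *T*, *Axin2* and *Sp5*. With Ror1, Ror2, Ryk or Ptk7 it can feed into planar cell polarity. In the caudal embryo, *Wnt3a* and *Wnt8a* are known from the progenitors of the growing axis, *Wnt5a* from axis elongation and convergent extension, and *Wnt3*, *Wnt4*, *Wnt6* and *Wnt7b* from epithelia that include the surface ectoderm.

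The counts came from scRNA-seq of the caudal part of C57BL/6 mouse embryos at E8.5 (6 to 7 somites) from *Grhl3*+/- intercrosses. *Grhl3* encodes a transcription factor required for neural tube closure. WT embryos (5) and *Grhl3*-null embryos (3) were genotyped from yolk sac and pooled by genotype, and 2 droplet reactions were run on each pool with a 3′ kit, which gives WT libraries 1 and 2 and *Grhl3*-null libraries 1 and 2. The 2 libraries of a genotype therefore share their embryos, so that the p-values below set 1 pool against another, without any measure of how embryos vary.

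Filters left 5459 and 5116 WT cells and 4842 and 4781 *Grhl3*-null cells, with medians of 33391 to 38070 UMIs (unique molecular identifiers, counted transcripts) per cell. For *Grhl3* itself, 878 and 803 UMIs were counted in WT and 12 and 14 in *Grhl3*-null. Pairs of libraries shared 7 to 16 cell barcodes. The cells fell into 14 named classes, of which the SE/NPB-like cluster (surface ectoderm together with neural plate border) held 13 of the 14 markers used for its name among its leading genes. All Wnt genes were kept out of the genes that shaped the clusters, and *Wnt6* was also taken out of the marker list. The pools held different embryos also by sex. From *Xist* and 4 Y-linked genes, 87.8% and 84.2% of the sexed neuroepithelium-like cells were female in the WT libraries against 17.5% and 15.1% in the *Grhl3*-null libraries. The pre-somitic mesoderm-like class held 505 and 493 WT cells, 100% and 99.8% of the sexed ones female, against 4 cells in each *Grhl3*-null library. Because cells called female and male came from different embryos of a pool, levels are also given for each sex beside the main results, and the part of the embryos in a difference between the pools was not tested. A difference between the sexes below is likewise one between cells of different embryos. Its p-value measures the spread between reactions on the same pools, and whether it reflects sex was not tested.

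All 9 genes are annotated as protein coding. In GENCODE on mm10, 8 of them lie at chr1:74771892-74785322 (*Wnt6*), chr4:137277489-137299726 (*Wnt4*), chr6:17988940-18030585 (*Wnt2*), chr6:119432531-119544347 (*Wnt5b*), chr11:59248033-59290752 (*Wnt3a*), chr11:103774150-103817957 (*Wnt3*), chr14:28504750-28527448 (*Wnt5a*) and chr15:85535437-85582473 (*Wnt7b*). None overlaps another gene on its own strand. *Wnt5a*, *Wnt5b*, *Wnt6* and *Wnt7b* overlap a gene on the opposite strand (*Gm2670*, *Fbxl14*, *Gm29539* and *AU022754*). Whether strand was used in counting is not given in the sources used here, so that UMIs of these pairs may not be told apart. No other gene matched 80% or more of a member's transcript at 95% identity or above. The longest match, of 951 bases at 80.757% identity, joined *Wnt5a* and *Wnt5b*.

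RefSeq promoters of mouse GRCm38.p6 were matched for 6 members with 8 start sites (*Wnt2*, *Wnt3*, *Wnt3a*, *Wnt4*, *Wnt5b* and *Wnt6*). *Wnt5a*, *Wnt7b* and *Wnt8a* are named only. Shown first are the stretches upstream of *Wnt6* (chr1:74771642-74771891, plus strand), *Wnt4* (chr4:137277385-137277488, plus strand) and *Wnt3* (chr11:103773925-103774149, plus strand), the ligands with their WT levels centred on the SE/NPB-like class or shared by it and the notochord-like class. *Wnt3a* (chr11:59290753-59291001, minus strand), a ligand of the axial progenitors, is shown beside them. Each is written 5′ to 3′ up to the base before the annotated start, with matches to GCCNNNGGC, the core that TFAP2 factors are known to bind, in capitals.
Wnt6: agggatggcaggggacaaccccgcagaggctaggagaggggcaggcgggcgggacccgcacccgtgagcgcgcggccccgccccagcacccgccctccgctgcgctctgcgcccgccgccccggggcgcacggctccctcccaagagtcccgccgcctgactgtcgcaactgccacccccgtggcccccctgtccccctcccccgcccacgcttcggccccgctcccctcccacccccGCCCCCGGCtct
Wnt4: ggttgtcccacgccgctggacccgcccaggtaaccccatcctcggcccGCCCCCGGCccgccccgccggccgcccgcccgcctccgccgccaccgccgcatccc
Wnt3: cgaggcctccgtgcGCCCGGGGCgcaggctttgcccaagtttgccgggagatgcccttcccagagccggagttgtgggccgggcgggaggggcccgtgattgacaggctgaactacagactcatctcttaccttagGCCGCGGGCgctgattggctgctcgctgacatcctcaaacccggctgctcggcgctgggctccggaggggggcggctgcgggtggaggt
Wnt3a: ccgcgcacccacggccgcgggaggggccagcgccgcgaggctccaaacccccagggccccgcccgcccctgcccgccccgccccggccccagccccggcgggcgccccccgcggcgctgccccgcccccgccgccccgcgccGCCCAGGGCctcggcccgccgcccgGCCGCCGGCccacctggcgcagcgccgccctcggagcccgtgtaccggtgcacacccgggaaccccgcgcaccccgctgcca
In GC content, the stretches ran from 68.9% (*Wnt3*) to 87.6% (*Wnt3a*), against a median of 52.4% over the 250 bases upstream of 32851 mouse starts. The core GCCNNNGGC, which reads the same on both strands, was found in 13.7% of all promoters, a share counted per start. All 6 matched members held it in the 250 bases of at least 1 start, with 2 matches each in *Wnt3* and *Wnt3a*. *Wnt5b* did not hold it at every start. The match of *Wnt2* lay inside the gene as GENCODE annotates it, and upstream of that start 5 of the 6 held one. The Grainyhead-like consensus AACCGGTT was in 0.116% of all promoters and in no member, and its inner core ACCGGT was in 1.86% of all and in *Wnt3a*. Of the TCF/LEF cores, searched on both strands, CTTTGA was in 13.8% of all promoters and in *Wnt5b*, and CTTTGT was in 16.5% of all and in no member. These matches describe letters in 250 bases. They are not binding sites.

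In WT embryos the ligands fell into 3 patterns of class. *Wnt6*, *Wnt4*, *Wnt7b* and, with the notochord-like class, *Wnt3* were highest in the SE/NPB-like class. *Wnt3a* and *Wnt8a* were highest in the neuromesodermal progenitor (NMP)-like class. For *Wnt8a* this did not hold in WT cells called male or with 20 principal components. There the neuroepithelium-like class was highest (6.51 and 10.8 CPM). *Wnt5a* and *Wnt5b* were found across mesoderm, gut and ectoderm, and *Wnt2* was low and highest in the mesenchyme 1-like class. Levels are given as CPM, the UMIs of the gene per 1000000 UMIs of the class in a library, as mean ± SD over 2 libraries of 1 pool. They compare classes for 1 gene and are not compared between genes.

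**Figure D1:**
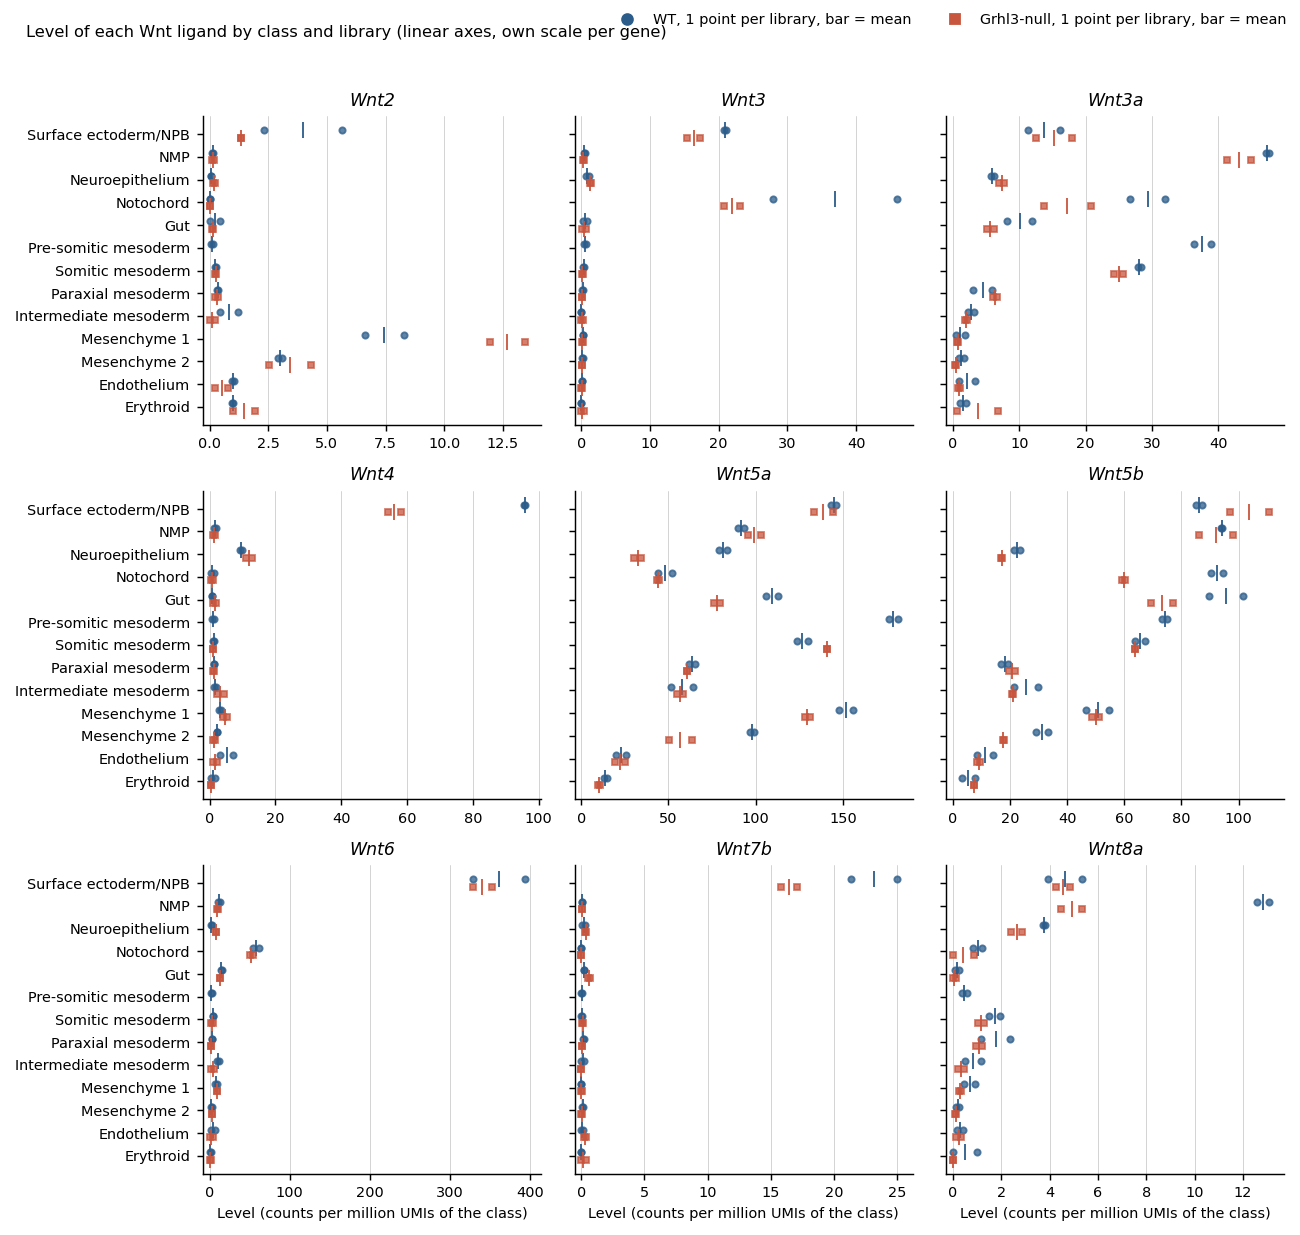
Level of each of the 9 Wnt ligands (panels) in 13 classes of cells (rows), in CPM on a linear axis of its own for each gene, with 1 point per library (WT circles, *Grhl3*-null squares) and a bar at the mean of the 2 libraries. *Wnt7b*, *Wnt6* and *Wnt4* stand out in the surface ectoderm row (WT means of 23.2, 361 and 95.8 CPM), *Wnt3a* and *Wnt8a* in the NMP row (47.4 and 12.8 CPM), and *Wnt5a* and *Wnt5b* spread over most rows.

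*Wnt6*, a ligand of epithelia, gave 329 and 394 CPM in the SE/NPB-like class of the WT libraries and 329 and 352 CPM in the *Grhl3*-null libraries. This class held 76.5% of the gene's WT UMIs. The next levels were 58.0 ± 5.67 CPM in the notochord-like, 14.6 ± 0.74 CPM in the gut-like, 11.3 ± 1.62 CPM in the NMP-like and 10.9 ± 1.74 CPM in the intermediate mesoderm-like class, where the first 3 steps exceeded the spread of the libraries and the last did not. The other 8 classes plotted were at 8.30 CPM or less. After each cell was thinned to 7500 UMIs, a *Wnt6* UMI was found in 78.5% and 82.4% of WT SE/NPB-like cells, whereas the endothelium-like class, which serves as background, gave 3.31% and 1.28%. Their median depths at full counts were 41444 and 42197 UMIs against 39166 and 35654.5 UMIs. The background class was not free of *Wnt6*, at 4.22 ± 2.87 CPM in WT.

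*Wnt4*, best known from kidney and female gonad, gave 95.6 and 95.9 CPM in the WT SE/NPB-like class, which held 70.0% of its UMIs. The neuroepithelium-like class followed at 9.64 ± 0.53 CPM. The endothelium-like class at 5.21 ± 2.72 CPM and the mesenchyme 1-like class at 3.22 ± 0.49 CPM did not differ beyond their spread. In thinned cells, *Wnt4* was found in 47.4% and 48.0% of WT SE/NPB-like cells and in 3.97% and 2.56% of endothelium-like cells.

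*Wnt7b*, a ligand of epithelia such as those of lung and kidney, was the most restricted. The SE/NPB-like class held 94.6% of its WT UMIs at 25.0 and 21.4 CPM. In the other 12 classes plotted the WT mean was 0.22 CPM or less. Thinned SE/NPB-like cells held a UMI in 18.3% and 12.7% of the WT libraries' cells, and thinned WT endothelium-like cells in 0 of 151 and 0 of 156 cells, which allows shares of up to 1.99% and 1.92%.

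*Wnt3*, required in the embryo for the primitive streak, was high in 2 classes. The notochord-like class gave 46.0 and 28.0 CPM over only 64 and 76 WT cells, and the SE/NPB-like class gave 20.7 and 21.1 CPM. The 2 classes thus differed by little more than the spread of the notochord-like libraries, and by number of UMIs the SE/NPB-like class held 60.0% of the gene and the notochord-like class 22.2%. The neuroepithelium-like class was far below at 0.89 ± 0.28 CPM. In thinned cells, *Wnt3* was found in 13.5% and 15.8% of WT SE/NPB-like and in 26.6% and 19.7% of WT notochord-like cells, against at most 0.641% of WT endothelium-like cells.

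Several members were found in the same SE/NPB-like cells. These cells held UMIs of a median of 5 of the 9 members in the WT libraries, against 3 in NMP-like and 2 in neuroepithelium-like cells. Among thinned WT SE/NPB-like cells with *Wnt4*, 86.6% and 89.6% also held *Wnt6*, and among those without *Wnt4* 71.2% and 75.7% did. Within this class, 121 and 114 WT cells had a *Grhl3* UMI and 130 and 107 had none, and the former were deeper (medians of 63272 and 64412 against 33761 and 31510 UMIs). Per UMI, *Wnt4* was at 103 and 104 CPM with *Grhl3* and at 84.8 and 79.3 CPM without it. *Wnt6* was at 355 and 411 against 289 and 360 CPM, *Wnt3* was at 20.8 and 21.3 against 20.7 and 20.8 CPM, and *Wnt2* was at 0.12 and 0.12 against 14.2 and 6.77 CPM. So *Wnt4* and *Wnt6* UMIs occurred in cells with and without *Grhl3*, and nearly all *Wnt2* UMIs of the class lay in cells without it. Few cells held these *Wnt2* UMIs, most of which lay in cells called female (counts below), so the *Wnt2* values describe those cells only.

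*Wnt3a*, which keeps the progenitors of the tail bud, gave 47.6 and 47.2 CPM in the WT NMP-like class, which held 40.3% of its UMIs. The pre-somitic mesoderm-like class followed at 37.6 ± 1.81 CPM, then the notochord-like class at 29.4 ± 3.75 and the somitic mesoderm-like class at 28.1 ± 0.38 CPM, and these last 2 did not differ beyond their spread. The SE/NPB-like class was at 13.7 ± 3.47 CPM and the gut-like class at 10.1 ± 2.68 CPM. In thinned WT NMP-like cells, 29.0% and 29.3% held a *Wnt3a* UMI, against 0 of 151 and 1.92% of the endothelium-like cells (the 0 allows a share of up to 1.99%).

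*Wnt8a*, a ligand of the posterior epiblast, was low throughout. It gave 12.6 and 13.1 CPM in the WT NMP-like class, with 59.9% of its UMIs, and 4.63 ± 0.98 CPM in the SE/NPB-like and 3.76 ± 0.06 CPM in the neuroepithelium-like class, which lay within the spread of the former. Thinned NMP-like cells held a UMI in 7.37% and 7.43% of cells in WT, and none of the 151 and 156 thinned endothelium-like cells did, which allows shares of up to 1.99% and 1.92%.

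Within the NMP-like class the ligands ran in opposite directions along *T* and *Sox2*, the markers of mesodermal and neural fate. WT cells with *T* and without *Sox2* (83 and 87 cells), with both (605 and 567 cells), and with *Sox2* and without *T* (97 and 83 cells) were compared. *Wnt3a* was at 86.6 and 88.3 CPM in the first, 49.9 and 47.8 CPM in the second and 5.24 and 5.68 CPM in the third. *Wnt5b* followed the same order with 186 and 168, 93.4 and 93.3, and 36.7 and 36.6 CPM, and *Wnt5a* with 115 and 124, 93.0 and 96.4, and 49.6 and 41.0 CPM. *Wnt8a* ran the other way, at 4.12 and 5.98, 10.0 and 11.3, and 36.9 and 33.7 CPM. In the 97 and 82 WT cells with *Nkx1-2* and without *T*, a preneural state, *Wnt8a* was at 36.9 and 33.5 CPM. These are largely the cells with *Sox2* and without *T* counted again, so the like values are no separate result. The libraries of each genotype did not overlap between the 3 groups of cells for *Wnt3a*, *Wnt5b* or *Wnt8a*, but the share of all genes without overlap was not counted and nothing is read from it. The groups were set by detection, which depends on the depth of a cell, and their median depths were 28950 and 32369, 38999 and 39347, and 32764 and 34698 UMIs.

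**Figure D2:**
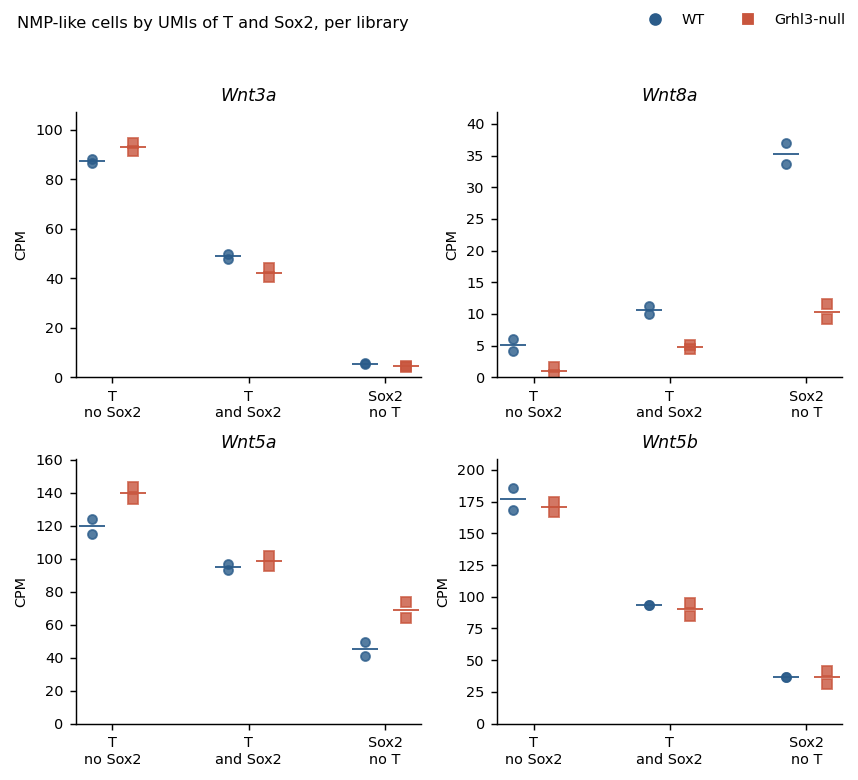
Level in CPM of *Wnt3a*, *Wnt8a*, *Wnt5a* and *Wnt5b* in NMP-like cells with *T* and no *Sox2*, with both, and with *Sox2* and no *T*, with 1 point per library (WT circles, *Grhl3*-null squares) and a line at the mean of the 2 libraries. *Wnt3a*, *Wnt5a* and *Wnt5b* fall and *Wnt8a* rises from the first to the last, and the *Grhl3*-null points of *Wnt8a* with *Sox2* and no *T* (11.6 and 9.14 CPM) lie below the WT points (36.9 and 33.7 CPM).

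*Wnt5a*, the main ligand of convergent extension, was highest in the pre-somitic mesoderm-like class (176 and 181 CPM in WT). The mesenchyme 1-like class followed at 152 ± 5.76, the SE/NPB-like class at 145 ± 2.00, the somitic mesoderm-like class at 127 ± 4.11 and the gut-like class at 109 ± 5.24 CPM. The mesenchyme 1-like and SE/NPB-like levels lay within about the spread of each other. The remaining classes ran from 97.9 ± 1.92 CPM in the mesenchyme 2-like class to 22.8 ± 3.90 CPM in the endothelium-like and 13.9 ± 1.11 CPM in the erythroid-like class, with the NMP-like class at 91.7 ± 2.53 and the neuroepithelium-like class at 81.2 ± 3.09 CPM. The highest class of *Wnt5a* was not stable. In WT cells called male it was the SE/NPB-like class (187 CPM). With 20 or 50 principal components, or Wnt genes among the variable features, it was the mesenchyme 1-like class (185, 182 and 186 CPM).

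*Wnt5b*, its close relative, had no single peak. The gut-like (89.6 and 101 CPM), NMP-like (93.9 and 94.2 CPM) and notochord-like (94.4 and 90.2 CPM) classes of WT did not differ beyond their spread, and the SE/NPB-like class at 86.2 ± 1.42 CPM came next. The pre-somitic mesoderm-like class was at 74.2 ± 1.28 and the somitic mesoderm-like class at 65.4 ± 2.59 CPM. The neuroepithelium-like class, at 22.4 ± 1.56 CPM, was far below them.

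*Wnt2*, known from the allantois, placenta and early lung, was highest in the mesenchyme 1-like class at 8.27 and 6.63 CPM in WT, which held 53.1% of its UMIs. The SE/NPB-like class gave 5.65 and 2.34 CPM over 76 and 29 UMIs, which overlaps the mesenchyme 2-like class at 3.00 ± 0.13 CPM. Thinned mesenchyme 1-like cells held a UMI in 6.67% and 5.17% of cells in WT, and none of the 509 and 472 thinned neuroepithelium-like cells did, which allows shares of up to 0.589% and 0.636%.

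By Pearson's r of log2(CPM + 1) over 14 classes among 9987 genes, *Wnt7b* was most like *Srms* (r = 0.994), *Bhlha9* and *Upk3bl*, and *Wnt4* most like *Srms* (r = 0.895), *Upk3bl* and *Dlx2*. *Wnt6* was most like *Borcs8* (r = 0.941), *Svopl* and *Cstb*, and *Wnt3* most like *Sostdc1* (r = 0.944) and *Sprr2a3*. *Wnt3a* was most like *Fgf17* (r = 0.938), *Fgf8* and *Epha1*, and *Wnt8a* most like *Rxrg* (r = 0.885), *Nkx1-2* and *Sema3a*. *Wnt5a* was most like *Klhl12* (r = 0.954), *Uri1* and *Ccdc61*, and *Wnt5b* most like *Fbxl14* (r = 0.967), the gene on its opposite strand, *Ptk7* and *Sdc2*. The classes share their libraries, and these values describe likeness only.

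Summed over all filtered cells of a library, 7 of the 9 ligands were lower and 1 was higher in *Grhl3*-null than in WT (edgeR's quasi-likelihood test, Benjamini-Hochberg adjusted p under 0.05 over 17168 genes). Over all genes tested, 18.5% were lower and 17.1% were higher by the same rule. *Wnt8a* moved most, from 3.18 and 3.57 CPM in WT to 1.72 and 1.61 CPM in *Grhl3*-null (log2 fold change -1.05 ± 0.08 SE, adjusted p = 1.1e-04). *Wnt3a* went from 18.3 and 18.7 to 13.3 and 12.3 CPM (-0.56 ± 0.04, adjusted p = 9.0e-05), *Wnt3* fell by 0.50 (adjusted p = 2.6e-03), *Wnt7b* by 0.45 (adjusted p = 0.021), *Wnt4* by 0.39 (adjusted p = 6.8e-04), *Wnt5a* by 0.32 (adjusted p = 1.0e-04) and *Wnt5b* by 0.25 (adjusted p = 2.0e-04) on the log2 scale. The libraries of the genotypes did not overlap for these 7 genes, but the share of all genes without overlap was not counted and nothing is read from it. In female cells alone *Wnt5a* and *Wnt5b* were higher instead (0.098, adjusted p = 0.0152, and 0.15, adjusted p = 0.0140), and without WT library 1 *Wnt7b* was not called (-0.29, adjusted p = 0.12). *Wnt2* rose from 1.61 and 1.29 to 2.69 and 2.46 CPM (0.80 ± 0.11, adjusted p = 1.5e-03), and *Wnt6* was not called (-0.13 ± 0.05, adjusted p = 0.071), although it was without WT library 1 (-0.20, adjusted p = 0.0034) or *Grhl3*-null library 1 (-0.16, adjusted p = 0.0093).

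These whole-library values also carry the makeup of the pools. The pre-somitic mesoderm-like class, which held 13.3% of the *Wnt3a* and 11.1% of the *Wnt5a* UMIs in WT, made up 9.25% and 9.64% of the WT cells and 0.0826% and 0.0837% of the *Grhl3*-null cells. With its cells left out, a choice made after the data were seen, *Wnt3a* fell by 0.45 and *Wnt5a* by 0.25 on the log2 scale, and all 9 ligands were called, with 15.2% of genes higher and 16.6% lower. The posterior Hox genes (paralogue groups after the 9th) summed to 109 and 113 CPM in WT and 24.5 and 23.8 CPM in *Grhl3*-null. Their part in the result was not tested.

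Within classes, the 9 ligands and 12 classes with enough cells gave 108 pairs, of which 70 passed the filter on low counts and 38 did not. In 27 pairs the ligand was called, lower in *Grhl3*-null in 22 and higher in 5. In 6 of the 27 the change was 1 or more on the log2 scale. Calls of that size were made for 414 of 13023 genes in the neuroepithelium-like and 370 of 12363 in the mesenchyme 2-like class. They were made for 221 of 12593 in the SE/NPB-like, 122 of 13563 in the NMP-like and 91 of 10648 in the intermediate mesoderm-like class. These classes held the 6, and no share was counted over all classes together. Over the classes tested, the median log2 fold change of all genes was between -0.0014 and 0.0087. The share of all genes called is given for each class beside its count.

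**Figure D3:**
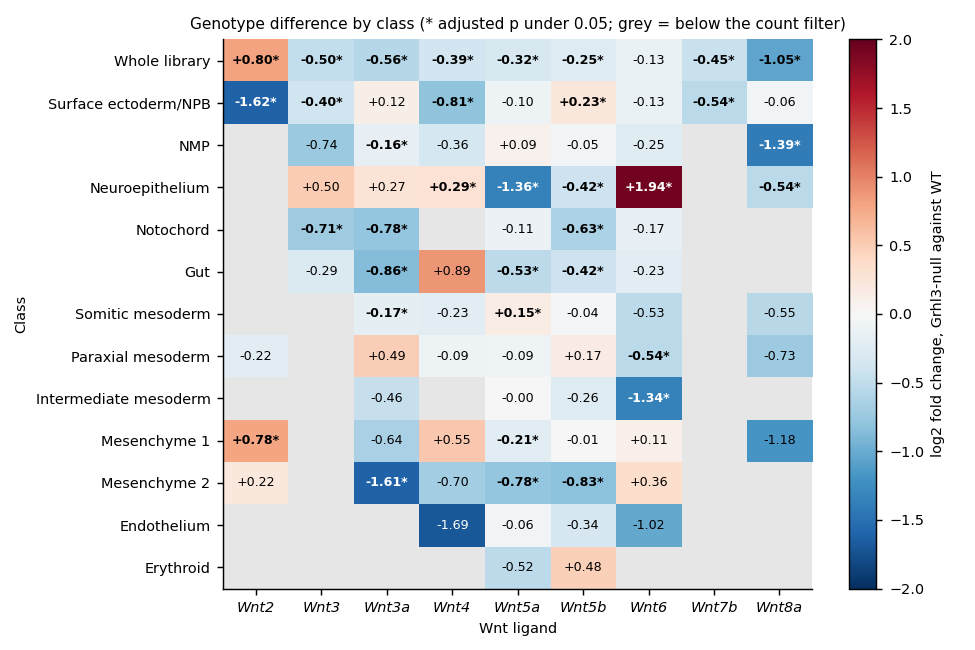
Log2 fold change of *Grhl3*-null against WT for each Wnt ligand (columns) in the whole library and in each class tested (rows), as colour and as a printed value, in bold with an asterisk for adjusted p under 0.05 and in grey where the counts were below the filter. The called values of 1 or more in size within classes include *Wnt6* (1.94) and *Wnt5a* (-1.36) in the neuroepithelium row, *Wnt8a* (-1.39) in the NMP row and *Wnt2* (-1.62) in the surface ectoderm row.

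In the SE/NPB-like class, 4 of the 9 ligands were lower and 1 was higher in *Grhl3*-null, against 7.93% lower and 5.35% higher of all genes tested there. *Wnt4* fell from 95.6 and 95.9 CPM in WT to 54.2 and 58.2 CPM in *Grhl3*-null (-0.81 ± 0.05, adjusted p = 3.5e-07). The share of thinned cells with a *Wnt4* UMI was 47.4% and 48.0% in WT (95% Clopper-Pearson intervals 41.1 to 53.8% and 41.2 to 54.8%) and 28.2% and 32.3% in *Grhl3*-null (22.9 to 34.1% and 26.6 to 38.4%). These intervals cover counting error within a library only. *Wnt4* was lower in female cells (101 and 88.8 against 52.6 and 61.2 CPM) and in male cells (97.4 and 123 against 55.5 and 58.4 CPM), and the test of the difference between the sexes did not pass (adjusted p = 0.61). It was also called under each of the 17 alternatives, with log2 fold changes from -0.95 to -0.76. Genes induced by tissue dissociation summed to 241 and 230 CPM in WT and 189 and 196 CPM in *Grhl3*-null cells of this class, and posterior Hox genes to 73.2 and 58.5 against 28.5 and 27.4 CPM. Their part in the changes of the class was not tested.

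*Wnt7b* fell from 25.0 and 21.4 to 15.8 and 17.0 CPM (-0.54 ± 0.10, adjusted p = 3.7e-03), and it fell in female cells (25.7 and 20.9 against 13.9 and 15.4 CPM) and in male cells (28.9 and 24.4 against 18.2 and 18.9 CPM). The only alternative that lost the call thinned each cell (-0.65, adjusted p = 0.16). *Wnt3* went from 20.7 and 21.1 to 15.5 and 17.3 CPM (-0.40 ± 0.10, adjusted p = 0.017). Female cells gave 23.5 and 20.6 against 19.97 and 24.6 CPM and male cells 16.2 and 25.0 against 12.7 and 11.5 CPM, so that the groups overlapped in female cells. Without *Grhl3*-null library 1 or WT library 2 the *Wnt3* call was lost (adjusted p = 0.11 and 0.064).

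*Wnt6*, the ligand most centred on this class after *Wnt7b*, gave 329 and 394 CPM in WT and 329 and 352 CPM in *Grhl3*-null, which overlap (-0.13 ± 0.07, adjusted p = 0.25). The value depended on 1 library, at -0.25 without WT library 1 (adjusted p = 0.011) and 0.0099 without WT library 2 (adjusted p = 0.95). Thinned cells with a *Wnt6* UMI made up 78.5% and 82.4% in WT and 79.4% and 77.0% in *Grhl3*-null. *Wnt3a* (13.7 ± 3.47 against 15.2 ± 3.92 CPM, adjusted p = 0.72) and *Wnt8a* (4.63 ± 0.98 against 4.56 ± 0.40 CPM, adjusted p = 0.89) were not called either. These p-values do not show that the levels were equal.

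For *Wnt5a* and *Wnt5b* the sexes moved apart in this class. *Wnt5a* was at 146 and 143 CPM in WT and 134 and 144 CPM in *Grhl3*-null (adjusted p = 0.22). In female cells it rose from 133 and 129 to 166 and 183 CPM (log2 fold change 0.35, adjusted p = 4.7e-04), and in male cells it fell from 183 and 190 to 108 and 106 CPM (-0.79, adjusted p = 3.5e-09). *Wnt5b* was called higher (85.2 and 87.2 against 96.8 and 111 CPM, 0.23 ± 0.06, adjusted p = 0.023), rose in female cells from 75.2 and 82.8 to 114 and 129 CPM and fell in male cells from 121 and 104 to 82.2 and 95.7 CPM. The *Wnt5b* call over all cells was lost without WT library 1, WT library 2 or *Grhl3*-null library 2 (adjusted p = 0.12, 0.06 and 0.19). The differences between the sexes were 1.13 for *Wnt5a* (adjusted p = 8.7e-09) and 0.88 for *Wnt5b* (adjusted p = 7.9e-06) on the log2 scale, by a test chosen after the levels by sex were seen. They compare cells of different embryos, and an effect of sex was not tested.

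*Wnt2* was called lower in this class (5.65 and 2.34 against 1.35 and 1.34 CPM, -1.62 ± 0.39, adjusted p = 0.013), over 76, 29, 18 and 15 UMIs. These UMIs lay in 11 of 251 and 8 of 221 WT cells and in 9 of 262 and 8 of 257 *Grhl3*-null cells, so that few cells set the value. WT female cells held 67 and 28 of them and WT male cells 0 and 1, whereas *Grhl3*-null female cells held 3 and 2 and male cells 14 and 13 UMIs. The call thus rested on UMIs of a few female cells in the WT pool, and without WT library 1 it was lost (-0.83, adjusted p = 0.24).

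**Figure D4:**
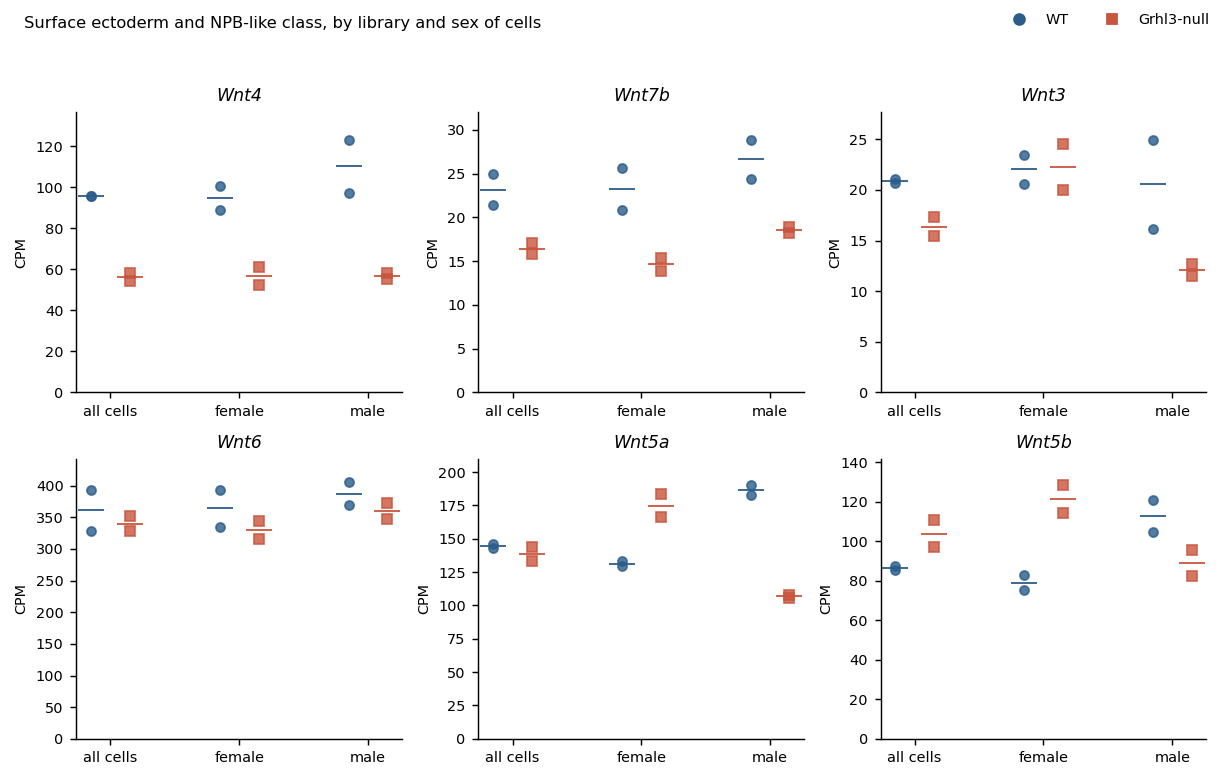
Level in CPM of 6 Wnt ligands in SE/NPB-like cells, for all cells and for cells called female or male, with 1 point per library (WT circles, *Grhl3*-null squares) and a line at the mean of the 2 libraries. *Wnt4* and *Wnt7b* are lower in *Grhl3*-null in both sexes, *Wnt6* overlaps in both, and *Wnt5a* and *Wnt5b* are higher in *Grhl3*-null in female cells and lower in male cells.

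In the NMP-like class, 2 of 7 tested ligands were lower and none was higher, against 10.8% lower and 7.48% higher of all genes. *Wnt8a* fell from 12.6 and 13.1 CPM in WT to 5.33 and 4.48 CPM in *Grhl3*-null (-1.39 ± 0.10, adjusted p = 6.8e-06). Thinned cells with a *Wnt8a* UMI went from 7.37% and 7.43% to 3.78% and 3.83%. By sex, female cells gave 17.2 and 16.9 against 3.96 and 3.64 CPM (-2.19, adjusted p = 2.3e-07), and male cells gave 4.75 and 6.0 against 8.11 and 5.98 CPM (0.41, adjusted p = 0.38). The lower level was thus found in female cells, and the genotype effect differed between cells called female and male (-2.60, adjusted p = 1.7e-08). These cells came from different embryos, and the p-value covers the spread between reactions only. An effect of sex was not tested.

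Among NMP-like cells by *T* and *Sox2*, *Wnt8a* was lower in *Grhl3*-null in each group, at 1.65 and 0.42 CPM with *T* only, 5.01 and 4.49 CPM with both and 11.6 and 9.14 CPM with *Sox2* only. In cells with *Nkx1-2* and without *T* it was at 11.3 and 9.01 CPM against 36.9 and 33.5 CPM in WT. In WT these are largely the cells with *Sox2* only, so this is no separate result. *Wnt3a* changed little, from 47.6 and 47.2 to 41.3 and 45.0 CPM (-0.16 ± 0.04, adjusted p = 0.020), and its call was lost under 6 of 17 alternatives, among them without WT library 1, WT library 2 or *Grhl3*-null library 1 (adjusted p = 0.073, 0.10 and 0.17). *Wnt5a* (89.9 and 93.5 against 95.5 and 103 CPM, adjusted p = 0.12), *Wnt5b* (93.9 and 94.2 against 86.0 and 98.1 CPM, adjusted p = 0.49) and *Wnt6* (10.2 and 12.5 against 9.08 and 10.3 CPM, adjusted p = 0.12) were not called.

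The neuroepithelium-like class held the largest changes of *Wnt5a* and *Wnt6*, with 2 of 7 tested ligands higher and 3 lower, against 10.2% higher and 12.2% lower of all genes. *Wnt5a* fell from 83.4 and 79.0 to 34.4 and 30.2 CPM (-1.36 ± 0.06, adjusted p = 9.8e-12). It was lower in female cells (93.4 and 90.6 against 80.8 and 70.7 CPM, -0.32, adjusted p = 1.7e-03) and in male cells (38.4 and 43.2 against 22.4 and 22.3 CPM, -0.82, adjusted p = 2.5e-06). Each value within a sex was thus smaller in size than the value over all cells, and female cells were above male cells in every library. With clusters at resolution 0.8 or from 20 principal components the value was -0.50 (adjusted p = 3.8e-04) and -0.47 (adjusted p = 7.3e-05).

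*Wnt6* rose in this class from 2.54 and 1.48 to 8.35 and 7.44 CPM (1.94 ± 0.19, adjusted p = 7.3e-07), far below its level in the SE/NPB-like class. It was higher in female cells (2.78 and 1.74 against 23.9 and 21.7 CPM) and in male cells (1.73 and 0.53 against 6.32 and 4.98 CPM). Thinned cells with a *Wnt6* UMI made up 1.18% and 1.06% in WT and 3.29% and 1.99% in *Grhl3*-null, against 3.31% and 1.28% of WT and 2.07% and 0% of *Grhl3*-null endothelium-like cells (0 of 197 cells, which allows a share of up to 1.52%), so that at this depth the shares were not above the background in every library. At full counts *Wnt6* was at 7.89 ± 0.64 CPM in *Grhl3*-null neuroepithelium-like and 2.07 ± 2.60 CPM in *Grhl3*-null endothelium-like cells. WT endothelium-like cells were at 4.22 ± 2.87 CPM, so this class is not free of *Wnt6*. The shares set beside it therefore cannot tell a low level from background. At resolution 0.8, where cells led by *Gadd45a*, *Pax3*, *Foxd3* and *Tfap2b* (genes of the dorsal neural tube and neural crest, named after their values were seen) formed a cluster of their own, *Wnt6* was no longer called in the neuroepithelium-like class (0.90, adjusted p = 0.31). The sum of the surface ectoderm markers was 537 and 559 CPM in *Grhl3*-null and 492 and 497 CPM in WT neuroepithelium-like cells, and its part in the result was not tested.

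*Wnt4* was called here by a narrow margin (9.26 and 10.0 against 11.2 and 12.8 CPM, 0.29 ± 0.10, adjusted p = 0.0496), was lost without WT library 1 or *Grhl3*-null library 2 (adjusted p = 0.20 and 0.32), and the sexes went apart. It fell in female cells from 9.85 and 11 to 6.03 and 4.93 CPM and rose in male cells from 7.61 and 5.82 to 12.8 and 14.1 CPM. *Wnt5b* fell from 23.5 and 21.3 to 17.0 and 17.1 CPM (-0.42 ± 0.07, adjusted p = 4.1e-04), and *Wnt8a* from 3.71 and 3.80 to 2.42 and 2.86 CPM (-0.54 ± 0.18, adjusted p = 0.038). For *Wnt8a*, female cells gave 3.24 and 2.82 against 3.41 and 4.93 CPM and male cells 5.88 and 7.15 against 2.23 and 2.64 CPM. Its call was lost or turned in 13 of 17 alternatives, and it held without *Grhl3*-null library 2 alone among the 4 libraries (adjusted p = 0.098, 0.11 and 0.20 without WT library 1, WT library 2 and *Grhl3*-null library 1). The makeup of this class differed between the pools beyond sex, since posterior Hox genes summed to 210 and 213 CPM in WT female cells and to at most 5.88 CPM in WT male and *Grhl3*-null cells, and the part of these cells in the changes was not tested.

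**Figure D5:**
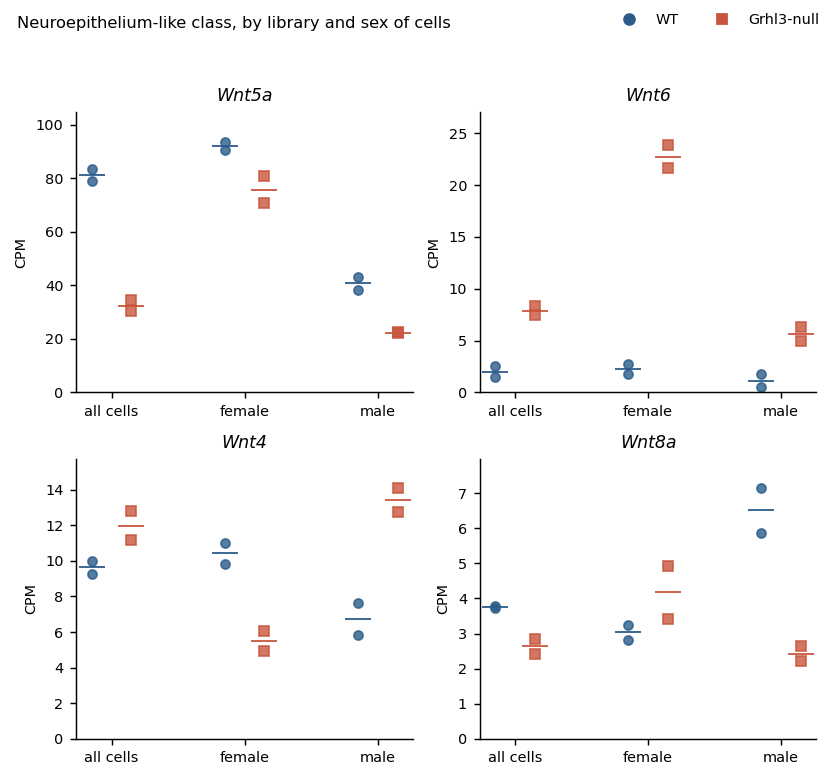
Level in CPM of *Wnt5a*, *Wnt6*, *Wnt4* and *Wnt8a* in neuroepithelium-like cells, for all cells and for cells called female or male, with 1 point per library (WT circles, *Grhl3*-null squares) and a line at the mean of the 2 libraries. *Wnt5a* is lower and *Wnt6* higher in *Grhl3*-null in both sexes, whereas *Wnt4* and *Wnt8a* go apart by sex.

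In the gut-like class 3 of 6 tested ligands were lower, against 9.74% lower and 9.41% higher of all genes. *Wnt5a* fell from 106 and 113 to 79.3 and 76.3 CPM (-0.53 ± 0.05, adjusted p = 1.6e-06). In male cells it fell from 106 and 107 to 61.0 and 56.5 CPM, whereas in female cells it gave 108 and 119 against 107 and 104 CPM (adjusted p = 0.48). *Wnt5b* fell by 0.42 (adjusted p = 1.3e-04) over all cells and by 0.80 in male cells, with -0.02 in female cells, and *Wnt3a* went from 8.19 and 12.0 to 6.15 and 5.13 CPM (adjusted p = 1.8e-03). The differences between the sexes passed for *Wnt5a* (0.82, adjusted p = 1.6e-06) and *Wnt5b* (0.79, adjusted p = 1.1e-05) and not for *Wnt3a* (0.75, adjusted p = 0.24). Posterior Hox genes summed to 172 and 228 CPM in WT and 39.3 and 37.9 CPM in *Grhl3*-null cells of the class, with 7 of 8 tested lower, and their part in the result was not tested.

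In the mesenchyme 2-like class 3 of 6 tested ligands were lower, against 9.96% lower and 10.3% higher of all genes. *Wnt5a* fell from 99.2 and 96.5 to 50.0 and 63.4 CPM (-0.78 ± 0.07, adjusted p = 1.7e-06) and *Wnt5b* from 33.2 and 29.2 to 17.4 and 17.8 CPM (-0.83 ± 0.08, adjusted p = 4.8e-06). *Wnt3a* was near the floor, over 25 and 14 WT and 4 and 7 *Grhl3*-null UMIs (-1.61 ± 0.48, adjusted p = 0.028), and the call was lost without WT library 1 or either *Grhl3*-null library (adjusted p = 0.30, 0.19 and 0.14). Of the sexed cells of the class, 86.4% and 84.2% were female in WT and 25.5% and 27.8% in *Grhl3*-null. *Wnt5a* was at 104 and 101 against 58.3 and 92.4 CPM in female cells and at 81.8 and 76.2 against 47.1 and 49.2 CPM in male cells, and was called in both. *Wnt5b* fell in female cells from 36.4 and 30.9 to 21.2 and 15.4 CPM and was not called in male cells (20.5 and 20.6 against 16.0 and 18.2 CPM, adjusted p = 0.36), with a difference between the sexes of -0.62 (adjusted p = 0.038). At resolution 0.8, which splits this class, the *Wnt5a* value was 0.10 (adjusted p = 0.86). Posterior Hox genes summed to 287 and 260 CPM in WT and 14.6 and 20.9 CPM in *Grhl3*-null cells of the class, and their part in the result was not tested.

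The mesenchyme 1-like class held the rise of *Wnt2*, from 8.27 and 6.63 to 13.4 and 11.9 CPM (0.78 ± 0.11, adjusted p = 5.7e-05), and a small fall of *Wnt5a* from 148 and 156 to 131 and 128 CPM (-0.21 ± 0.04, adjusted p = 2.7e-03), with 2 of 7 ligands called against 4.27% higher and 3.14% lower of all genes. By sex, *Wnt2* went from 5.79 and 3.83 to 13.2 and 14.8 CPM in male cells (1.53, adjusted p = 1.0e-07), and in female cells it gave 11.4 and 11 against 14.2 and 10.2 CPM, which overlap (0.15, adjusted p = 0.58). The call was lost under 6 of 17 alternatives. With 50 principal components, which set the class to 459 cells instead of 2528, the value was -0.24 (adjusted p = 0.55).

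In the notochord-like class, over 44 to 76 cells per library, 3 of 5 tested ligands were lower, against 2.53% lower and 2.05% higher of all genes. *Wnt5b* fell from 94.4 and 90.2 to 59.3 and 60.2 CPM (-0.63 ± 0.12, adjusted p = 8.4e-04). *Wnt3* went from 46.0 and 28.0 to 20.8 and 23.0 CPM (adjusted p = 0.045) and *Wnt3a* from 32.0 and 26.7 to 20.8 and 13.7 CPM (adjusted p = 0.036), and these calls were lost in 9 and 8 of 14 alternatives. *Wnt3* lost it without WT library 1 (-0.35, adjusted p = 0.61), *Grhl3*-null library 1 (adjusted p = 0.25) or *Grhl3*-null library 2 (adjusted p = 0.16), and *Wnt3a* without WT library 1 (adjusted p = 0.19) or *Grhl3*-null library 2 (-0.47, adjusted p = 0.43). *Wnt6*, at 54.0 and 62.0 against 53.7 and 50.8 CPM, was not called (adjusted p = 0.60). Genes induced by dissociation summed to 401 and 373 CPM in WT and 266 and 280 CPM in *Grhl3*-null cells of this class, and posterior Hox genes to 44.3 and 37.4 against 1.52 and 3.84 CPM. Their part in these changes was not tested.

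In the somitic mesoderm-like class *Wnt5a* rose slightly, from 124 and 130 to 141 and 141 CPM (0.15 ± 0.03, adjusted p = 7.5e-03), and *Wnt3a* fell from 28.4 and 27.9 to 25.7 and 24.3 CPM (-0.17 ± 0.05, adjusted p = 0.024), 2 of 6 ligands against 8.71% higher and 9.08% lower of all genes. Without WT library 1 neither was called (adjusted p = 0.13 and 0.10), nor was *Wnt3a* without *Grhl3*-null library 2 (adjusted p = 0.17). In female cells *Wnt5a* rose from 126 and 127 to 160 and 154 CPM, and in male cells it was not called (124 and 134 against 136 and 137 CPM, adjusted p = 0.38). *Wnt3a* fell in male cells from 30.004 and 30.7 to 22.8 and 21.4 CPM and was not called in female cells (27.0 and 28.2 against 28.2 and 26.5 CPM, adjusted p = 0.87). *Wnt6* was lower in the paraxial mesoderm-like class (2.94 and 3.45 against 2.13 and 2.32 CPM, adjusted p = 0.032), 1 of 7 ligands against 12.6% lower and 9.44% higher, and in the intermediate mesoderm-like class (9.70 and 12.2 against 5.95 and 2.26 CPM, adjusted p = 0.025), 1 of 4 against 1.71% lower and 1.56% higher. With doublets removed, the *Wnt6* value in the paraxial mesoderm-like class was 0.20 (adjusted p = 0.62). That call was also lost without WT library 2, *Grhl3*-null library 1 or *Grhl3*-null library 2 (adjusted p = 0.16, 0.15 and 0.054), and the one in the intermediate mesoderm-like class without WT library 2 or *Grhl3*-null library 2 (-0.83, adjusted p = 0.14, for the last). In the latter class, 85.6% and 81.3% of sexed WT cells and 22.1% and 24.7% of *Grhl3*-null ones were female. Its *Wnt6* UMIs were 38 and 34 in WT female cells and 1 and 2 in WT male cells, against 0 and 0 in *Grhl3*-null female and 15 and 5 in male cells. Posterior Hox genes were lower in these 3 mesoderm classes too (4 of 7, 4 of 4 and 1 of 1 tested), and their part was not tested. No ligand was called among 4 tested in the endothelium-like class (0.339% of genes lower and 0.261% higher) and 2 in the erythroid-like class (0.186% lower and 0.256% higher), where 1396 and 739 of all genes had an unadjusted p under 0.05. The pre-somitic mesoderm-like class could not be tested with 4 *Grhl3*-null cells per library.

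The sexes were compared for every ligand in the classes with enough sexed cells. Each comparison is between cells of different embryos and does not show an effect of sex. Of 53 pairs of ligand and class (or whole library) with at least 10 UMIs in each sex and genotype, the genotype effect differed between female and male cells in 27. The shares of all genes that follow carry no such minimum of UMIs. They are thus not a like comparison, and nothing is read from the 27 beside them. Over all genes this test called 37.5% in whole libraries, 29.9% in the neuroepithelium-like, 23.8% in the mesenchyme 2-like, 16.3% in the paraxial mesoderm-like, 16% in the mesenchyme 1-like, 12.4% in the SE/NPB-like, 11.8% in the NMP-like, 11% in the somitic mesoderm-like, 8.94% in the gut-like and 3.05% in the endothelium-like class.

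*Porcn* and *Wls*, the genes of Wnt release, were called higher in some classes and lower in none. Of all genes, 17.1% were higher and 18.5% lower over whole libraries. In the classes with a call, the share of all genes higher was 10.2% (neuroepithelium-like), 10.3% (mesenchyme 2-like) and 1.56%, 9.44% and 8.71% (intermediate, paraxial and somitic mesoderm-like). With 2 genes, nothing is read from the count. Over whole libraries *Porcn* rose from 4.45 to 5.74 CPM (0.34, adjusted p = 1.2e-03), and *Wls* was not called. In the neuroepithelium-like class both rose (*Porcn* by 0.62, adjusted p = 3.1e-04, and *Wls* by 0.22, adjusted p = 5.2e-03), and in the mesenchyme 2-like class *Wls* rose from 81.1 to 112 CPM (0.46, adjusted p = 8.8e-06). *Wls* was also higher in the intermediate (0.35) and paraxial (0.14) and *Porcn* in the somitic (0.49) mesoderm-like class, and neither was called in the SE/NPB-like, NMP-like, gut-like, mesenchyme 1-like, notochord-like or endothelium-like class.

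Of 16 receptors and co-receptors, 8 were higher and 2 lower over whole libraries (median log2 fold change 0.10), against 17.1% higher and 18.5% lower of all genes. *Fzd7* was higher in whole libraries (18.3 against 24.3 CPM, 0.38, adjusted p = 3.8e-05) and in the neuroepithelium-like (0.59), NMP-like (0.39), gut-like (0.74) and mesenchyme 2-like (0.68) classes. In the SE/NPB-like class 2 of 15 tested receptors were higher and none lower, against 5.35% and 7.93% of all genes, namely *Ror1* (6.09 against 9.59 CPM, 0.61, adjusted p = 0.015) and *Fzd2* (78.8 against 93.7 CPM, adjusted p = 0.018). *Ptk7*, a co-receptor of planar cell polarity, was lower in whole libraries (110 against 88.6 CPM, -0.35) and in the neuroepithelium-like class (75.6 against 40.0 CPM, -0.95, adjusted p = 5.2e-11).

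Of 10 secreted antagonists, 3 were higher and 3 lower over whole libraries, where 17.1% of all genes were higher and 18.5% lower, so that nothing is read from the count. Among them were *Dkk1* (37.3 against 20.2 CPM, -0.92, adjusted p = 1.4e-05) and *Sfrp5* (0.71 against 1.46 CPM, 1.02, adjusted p = 3.0e-04). In the NMP-like class *Sfrp5* fell from 1.82 to 0.24 CPM (-2.82, adjusted p = 7.2e-04), and in the neuroepithelium-like class it rose from 0.95 to 6.08 CPM (2.66, adjusted p = 2.4e-06). Of 7 R-spondins and Lgr receptors, which enhance Wnt signalling, 2 were higher and 2 lower, from which nothing is read either. *Rspo3* fell over whole libraries (234 against 164 CPM, -0.54, adjusted p = 1.5e-05) while it rose in the SE/NPB-like class (132 against 162 CPM, 0.26, adjusted p = 0.045).

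Of 16 targets and feedback genes, 12 were lower and 1 was higher over whole libraries (median -0.34), against 18.5% lower and 17.1% higher of all genes. In the gut-like class 10 of 15 tested were lower and none higher (median -0.35), against 9.74% lower of all genes. In the mesenchyme 2-like class 11 of 15 were lower and none higher (-0.77), against 9.96% lower, and in the neuroepithelium-like class 8 of 14 lower and 2 higher (-0.21), against 12.2% lower and 10.2% higher. In the paraxial mesoderm-like class 5 of 16 were lower and 5 higher (0.13), against 12.6% lower and 9.44% higher. In the mesenchyme 1-like class 6 of 15 and in the notochord-like class 4 of 15 were lower and none higher, against 3.14% and 2.53% lower of all genes. In the somitic mesoderm-like class 4 of 16 were lower and 2 higher (-0.03), against 9.08% lower and 8.71% higher. In the NMP-like class 3 of 16 were lower and 2 higher (0.02), against 10.8% and 7.48% of all genes, with *Cdx1* (161 against 110 CPM, -0.57, adjusted p = 1.0e-06) and *Sp5* (145 against 113 CPM, -0.38, adjusted p = 3.8e-04) lower and *T* slightly higher (248 against 273 CPM, 0.11, adjusted p = 0.042). In the SE/NPB-like class, where *Wnt4* fell, 4 of 15 targets were higher and 1 lower (0.06), against 5.35% and 7.93% of all genes, with *Fgf8* (79.9 against 123 CPM, 0.58, adjusted p = 3.8e-05), *T* (90.9 against 130 CPM, 0.49, adjusted p = 1.1e-03), *Cdx4* and *Nkd1* higher and *Cdx2* lower. In the neuroepithelium-like class *T* (39.6 against 11.5 CPM, -1.81, adjusted p = 3.5e-10) and *Fgf8* (74.8 against 19.9 CPM, -1.94, adjusted p = 3.6e-11) fell and *Axin2* rose (26.2 against 31.7 CPM, 0.25, adjusted p = 5.1e-03). The pools differed in the sex makeup and posterior Hox level of this class, as given above. These and the other pathway values are given over all cells, and the part of that makeup in them was not tested.

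Among the 10 other Wnt genes, 2 were higher and 3 lower over whole libraries, near the 17.1% higher and 18.5% lower of all genes. *Wnt1*, a ligand of the dorsal neural tube, rose in the neuroepithelium-like class from 2.94 to 7.17 CPM (1.26, adjusted p = 1.0e-05), the class in which *Wnt6* rose. The part of the makeup of that class in this rise was not tested. In the SE/NPB-like class 5 of the 10 could be tested and none was called.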

How the data were processed

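Single cells of the caudal part of mouse embryos were profiled in 2 WT and 2 *Grhl3*-null libraries. Cell Ranger and mm10 are named in the submitters' processing notes, and the authors deposited the UMI counts of each gene in each cell (whether strand was used is not given in the sources used here). Each file holds raw counts. The members and gene lists were chosen with earlier results of these data known.

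The filter kept cells that had 3000 genes and 7500 UMIs or more, with a mitochondrial share of 7% or less. Counts were transformed with sctransform 0.4.2 in Seurat 5.3.0 (R 4.3.3). From 3000 variable features, without any Wnt gene, 30 principal components, 20 neighbours and resolution 0.4 gave the clusters. A cluster was named "-like" when at least 3 of its 30 leading genes were markers of a class, over 1.5 times the next class. A doublet caller marked under 0.5% of cells, so an alternative removed the 5% with the highest scores. For sex, 2 or more UMIs from 4 Y-linked genes beside 2 or fewer from *Xist* made a cell male, and 3 or more from *Xist* beside 1 or none from the Y-linked genes made it female.

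UMIs were summed per library and class, where each library held at least 30 cells, and tested with edgeR 4.0.16 (TMM, filterByExpr, quasi-likelihood test, Benjamini-Hochberg over all genes of the fit, called at adjusted p under 0.05). The SE of a log2 fold change is its size divided by the square root of F. The libraries of a genotype are reactions on 1 pool, so p-values measure the spread between reactions, which may be technical. Within a genotype the libraries differed by more than the counting noise of independent UMIs and were kept as 2. Because UMIs of a cell are not independent, this does not show a difference beyond the sampling of cells. Intervals on shares of cells are Clopper-Pearson at 95%, and a share of 0 the limit that 3 counts allow. Intervals and limits cover counting error only. Named genes were the 9 ligands in each class, the genes of the fixed lists, and, for each ligand of at least 10 CPM in its highest WT class, the 3 genes with the highest Pearson's r (1 of them is not reported here). Alternatives were DESeq2 1.42.0, no filter on low counts, a block for the library number, each library left out, doublets removed, 5% mitochondrial UMIs, thinning to 7500 UMIs, cells of 1 sex, resolution 0.8, 20 or 50 principal components, log-normalised counts, and Wnt genes among the variable features. The fits were tested on simulated data.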

Additional observations from a re-analysis of the deposited data

Results flagged for a closer look

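The genotype effect, *Grhl3*-null against WT on the log2 scale, differed between cells called female and cells called male for the following ligands, by a test chosen after the levels by sex were seen. The values are the effect in female cells minus that in male cells, and female and male cells of a pool came from different embryos. For *Wnt5a* the difference was 0.85 in whole libraries, 1.29 in the paraxial mesoderm-like, 1.13 in the SE/NPB-like, 0.82 in the gut-like, 0.50 in the neuroepithelium-like, 0.45 in the NMP-like, 0.35 in the mesenchyme 1-like and 0.22 in the somitic mesoderm-like class. For *Wnt5b* it was 0.76 in whole libraries, 0.88 in the SE/NPB-like, 0.79 in the gut-like, 0.21 in the NMP-like and -0.62 in the mesenchyme 2-like class.

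For *Wnt3a* it was 0.78 in whole libraries, 1.15 in the SE/NPB-like, 0.43 in the somitic mesoderm-like, 0.29 in the NMP-like and -1.98 in the neuroepithelium-like class. For *Wnt8a* it was -1.36 in whole libraries, -2.60 in the NMP-like, -2.55 in the SE/NPB-like and 1.79 in the neuroepithelium-like class. *Wnt4* differed by 1.23 in the mesenchyme 1-like and by -2.04 in the neuroepithelium-like class, *Wnt6* by -1.90 in the mesenchyme 1-like and -0.64 in the NMP-like class, and *Wnt2* by -1.40 in the mesenchyme 1-like class. *Wnt3* and *Wnt7b* had no such difference among the pairs with at least 10 UMIs in each sex and genotype.

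UMIs of the *LacZ* sequence in the count matrices were found in *Grhl3*-null libraries 1 and 2 (13 and 22 UMIs) and in neither WT library (0 UMIs each).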

How the results depend on the processing

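Over whole libraries 8 ligands were called. The count was 4 in cells called male only, and between 8 and 9 without each library in turn. Within classes 27 pairs were called, 24 to 26 without each library. Of the 27, 17 were kept without WT library 1, 21 without WT library 2, 21 without *Grhl3*-null library 1 and 19 without *Grhl3*-null library 2, and 7, 3, 5 and 5 other pairs were called in turn. The count was 13, all among the 27, with DESeq2 (where 14 pairs had no adjusted p, *Wnt8a* in the NMP-like class among them) and 11, again all among them, after thinning. Of the pathway genes 158 pairs were called, 134 to 145 without each library, 84 with DESeq2 and 60 after thinning. All 9 ligands have a highest WT class, which was kept for 8 to 9 without each library, 5 in male cells only and 6 with 20 principal components. In male cells it moved for *Wnt3*, *Wnt5a*, *Wnt5b* and *Wnt8a*, and with 20 principal components for *Wnt5a*, *Wnt5b* and *Wnt8a*. With fewer cells or UMIs the tests have fewer counts, and other causes were not tested. The mean WT shares of cells with a UMI moved with thinning from 83.6% to 47.7% (*Wnt4*) and 93.8% to 80.4% (*Wnt6*) in the SE/NPB-like class, and from 66.0% to 29.1% (*Wnt3a*) and 28.1% to 7.40% (*Wnt8a*) in the NMP-like class.

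Directions turned as follows on the log2 scale, and the cause was not tested. In whole libraries *Wnt6* was at 0.18 after thinning and 0.12 in male cells, and in female cells *Wnt5b* was at 0.15 and *Wnt5a* at 0.098. In the SE/NPB-like class *Wnt6* ran from -0.25 to 0.0099 over the fits that leave out 1 library each, *Wnt5b* at -0.33 in male cells and *Wnt5a* at 0.35 in female cells. In the neuroepithelium-like class *Wnt4* was at -0.96 in female cells, -0.31 at resolution 0.8 and -0.064 with 20 principal components, and *Wnt8a* at 0.41 in female cells. *Wnt8a* was at 0.41 in male NMP-like cells, *Wnt2* at -0.24 in the mesenchyme 1-like class with 50 principal components, *Wnt5a* at 0.10 in the mesenchyme 2-like class at resolution 0.8, and *Wnt6* at 0.20 in the paraxial mesoderm-like class with doublets removed.

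With a replicate block for the library number, 9 ligands were called in whole libraries, 34 pairs within classes and 180 pairs of pathway genes. Same-numbered libraries did not deviate together (r = 0.0081 over 17168 genes), so they share only a number.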
